A study of Homo sapiens with 54 samples.

Results

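The 30 genes described here encode enzymes and regulators of cholesterol and fatty acid synthesis, and they were taken by symbol from the 59368 genes of the deposited gene tables. They comprised 7 genes of the mevalonate stage (ACAT2, HMGCS1, MVK, PMVK, MVD, IDI1 and FDPS), 11 genes of the squalene and sterol stage (FDFT1, SQLE, LSS, CYP51A1, TM7SF2, MSMO1, NSDHL, HSD17B7, EBP, SC5D and DHCR7), 4 regulators and sterol carriers (INSIG1, SREBF1, SREBF2 and STARD4) and 8 genes of fatty acid and glycerolipid synthesis (ACLY, ACACA, FASN, ELOVL6, SCD, FADS1, FADS2 and LPIN1). Poly(A) RNA was sequenced from 3 established human lines of colorectal cancer cells (HT-29, HCT-116 and DLD-1), each as the 5-FU-sensitive line and as a 5-FU-resistant derivative obtained by passaging in rising concentrations of 5-fluorouracil (5-FU, a pyrimidine analog used in chemotherapy). Cells of each kind received 10 µM uracil (the control), 10 µM 5-FU, or 10 µM 5-FU followed by irradiation at each line's own median lethal dose. Uracil or 5-FU was given for 24 h, and irradiation came after a change of medium. There were 3 libraries per condition and 54 libraries in all. The sources used here do not say whether the resistant derivatives were single clones, and the resistant cells of every treatment shared the earlier exposure to 5-FU that the sensitive cells lacked. The paper states that resistant cells were maintained in 5-FU, at a concentration above the 10 µM given here. The contrast of 5-FU with uracil may therefore not be the same change of exposure in resistant as in sensitive cells.

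Acetyl-CoA is built into mevalonate, isoprenoids, squalene and then lanosterol, which a series of demethylations, reductions and isomerisations turns into cholesterol. The same acetyl-CoA, made from citrate by ACLY, is carboxylated by ACACA, assembled into palmitate by FASN, elongated by ELOVL6 and desaturated by SCD. FADS1 and FADS2 insert double bonds into polyunsaturated fatty acids. Transcription of most of these genes is driven by the sterol regulatory element-binding proteins (SREBPs), encoded by SREBF1 and SREBF2. When sterols are plentiful, INSIG1 retains the SREBPs in the endoplasmic reticulum, and when sterols are scarce they are released, cut and moved to the nucleus, usually acting together with the factors NF-Y and SP1 at promoters. INSIG1 is itself a target, so its mRNA is a common readout of SREBP activity. Proliferating tumour cells depend on both routes for membrane lipids.

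Promoter sequence was examined because this regulation is described for most of the 30 genes. RefSeq promoters (assembly GRCh38.p14, the 250 bases before the start) matched 26 of the 30 genes, with 37 windows. The sterol element letters TCACNCCAC, searched on both strands, were present in 310 of all 35116 windows (0.883%) and in 1 of these 37, that of SREBF2, 133 bases before its start. The box bound by NF-Y, CCAAT on either strand, was present in 23 of the 37 windows (62.2%, 19 genes) and in 32.0% of all windows. Both are letters found in these windows and not mapped sites. The SREBF2 window (chr22:41832932-41833020, plus strand) is shown with the sterol element in capitals, followed by 1 NF-Y box, in capitals, for each of 4 genes that respond to 5-FU in the results below and that were chosen with their values known: HMGCS1 (chr5:43313483-43313537, minus strand), INSIG1 (chr7:155297683-155297737, plus strand), SCD (chr10:100347022-100347076, plus strand) and IDI1 (chr10:1048944-1048998, minus strand). The box nearest the start is shown, and HMGCS1, SCD and IDI1 had further matches in the 250 bases.
SREBF2: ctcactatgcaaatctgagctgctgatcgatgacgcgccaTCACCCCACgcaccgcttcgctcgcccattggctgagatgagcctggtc
HMGCS1: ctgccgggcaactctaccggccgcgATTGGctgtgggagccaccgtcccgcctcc
INSIG1: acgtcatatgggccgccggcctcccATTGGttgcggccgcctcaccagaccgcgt
SCD: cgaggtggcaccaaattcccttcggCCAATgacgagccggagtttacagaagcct
IDI1: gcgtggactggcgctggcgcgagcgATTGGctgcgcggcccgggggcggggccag
ATTGG is CCAAT read on the opposite strand.

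Gene totals ranged from 38957142 to 218518344 estimated counts per library (median 51373543), and the deepest library was 1 of the sensitive DLD-1 uracil libraries. Of the 30 genes, 29 were at 1 TPM or more in every library, the exception being FADS2 in sensitive HT-29. Levels below are TPM, a measure of a gene's share of the transcripts in a library, corrected for length. Changes are log2 fold changes of scaled counts from edgeR's quasi-likelihood test with their standard error (SE), and a gene was called higher or lower at an adjusted p of at most 0.01 over all genes tested. The background given beside each count is the percentage of all tested genes called in the same direction. These are bulk measurements, in which fewer cells expressing a gene and less RNA per cell cannot be told apart. Leaving out the scaling for library composition moved the median of all genes by more than 0.1 on the log2 scale in several comparisons. It moved most under 5-FU in sensitive HT-29 (from 0.03 to 0.19) and for labelled resistant against sensitive HT-29 (from 0.00 to 0.26). Changes are therefore relative to the bulk of expressed genes, and TPM can move less, or the other way. The counts, unlike TPM, were not corrected for transcript length, so composition need not be the only source of such gaps. The part of transcript length in the changes was not tested.

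Line identity was checked with genes that were at 10 TPM or more in the uracil libraries of 1 sensitive line and at most 0.1 TPM in those of the others. The libraries labelled resistant HT-29 had none of the 5 HT-29 markers at 1 TPM, whereas 95.7% of the 46 HCT-116 markers were at 1 TPM or more in all of them. They are therefore called labelled resistant HT-29 throughout. Resistant DLD-1 kept 94.1% of 17 DLD-1 markers and resistant HCT-116 between 95.7% and 97.8% of the HCT-116 markers. Of 8 colon epithelial markers, 8 were present in DLD-1 and 7 in each of the other lines (VIL1 was under 1 TPM in HCT-116 and in labelled resistant HT-29, CDX2 in sensitive HT-29), and a list of 5 markers of leukocytes, fibroblasts, endothelium and mesenchymal cells (PTPRC, COL1A1, COL3A1, PECAM1 and VIM) was checked as well. PTPRC and COL3A1 were under 1 TPM in every library. COL1A1 and VIM were at 1 TPM or more in every library of HCT-116, sensitive and resistant, and of labelled resistant HT-29, where the list summed to between 18.4 and 34.3 TPM, against between 0.789 and 7.56 TPM in the other cells. In HCT-116 VIM was between 1.12 and 5.97 TPM in sensitive and between 6.16 and 13.3 TPM in resistant libraries, COL1A1 was between 19.5 and 31.1 TPM and between 9.70 and 14.1 TPM, and their part in the comparisons of these cells was not tested. Replicate 3 of resistant HCT-116 under uracil was below both other replicates in 29 of the 30 genes (39.4% of all genes), with a median difference of -0.39 on the log2 scale, and replicate 3 of resistant HCT-116 under 5-FU with irradiation was above both others in 25 of the 30 (34.0% of all genes), with a median of 0.24. Counts and the main genes of the resistant HCT-116 comparisons are given with and without these libraries. By the spread of all genes another library stood apart as well: replicate 1 of resistant DLD-1 under uracil differed most from its fellow replicates (chi-square per degree of freedom 24.5 and 21.1), and 54.5% of all genes were higher in it than in both others, while 14 of the 30 genes were above and 11 below both others (median 0.04).

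Under uracil the lines differed in the mRNA levels of these genes. In sensitive DLD-1 the most abundant mRNAs among the 30 were FDPS, which makes farnesyl diphosphate (314, 311 and 322 TPM), FASN (270, 276 and 243 TPM) and FDFT1, the squalene synthase (230, 225 and 235 TPM). Sensitive HCT-116 was lower than sensitive DLD-1 in 18 of the 30 genes and higher in 6 (background 29.2% lower and 31.0% higher), with a median of -0.68. All 11 genes of the squalene and sterol stage were among those that were lower. MSMO1, which removes methyl groups from sterols, was at 90.5, 86.1 and 96.2 TPM in DLD-1 and at 30.5, 30.8 and 31.4 TPM in HCT-116. That difference was -1.55 ± 0.11 (SE) on the log2 scale (adjusted p = 1.7e-11). The genes that were higher in HCT-116 were PMVK, MVD, SREBF1, SCD, FADS1 and FADS2. Sensitive HT-29 was higher than sensitive HCT-116 in 17 genes and lower in 9 (background 31.2% higher and 34.4% lower), with 10 of the 11 squalene and sterol genes among those that were higher. Against sensitive DLD-1, HT-29 was higher in 7 and lower in 12 of the 30, counts near the shares of all genes (background 28.7% and 31.7%).

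**Figure D1:**
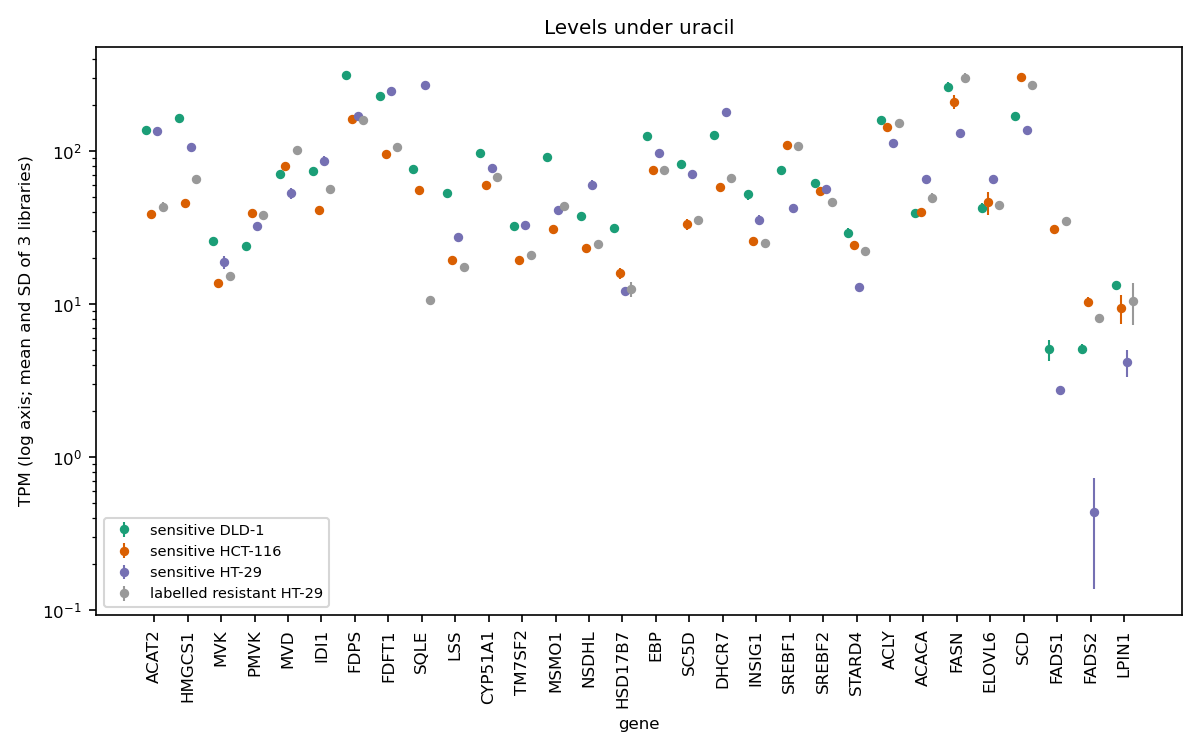
Levels of the 30 genes under uracil, in TPM on a log axis, for the 3 sensitive lines and the labelled resistant HT-29 cells. Points are means and bars the SD of 3 libraries. FADS2 lies near 0.4 TPM in sensitive HT-29, and SQLE spans more than an order of magnitude between sensitive HT-29 and labelled resistant HT-29.

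The genes that set the lines furthest apart were SQLE and the desaturases FADS1 and FADS2. SQLE, squalene epoxidase, which carries out the first oxygenation of the sterol route, was at 272, 283 and 257 TPM in sensitive HT-29, 79.0, 74.0 and 75.6 TPM in DLD-1 and 55.0, 55.3 and 56.5 TPM in HCT-116. The 3 ranges did not overlap, and HT-29 exceeded HCT-116 by 2.51 ± 0.13 (adjusted p = 1.1e-13). FADS1, which inserts a double bond into polyunsaturated fatty acids, was at 30.9, 32.0 and 30.3 TPM in HCT-116, 4.19, 5.13 and 5.78 TPM in DLD-1 and 2.82, 2.56 and 2.78 TPM in HT-29. HCT-116 thus stood 3.29 ± 0.06 above DLD-1 on the log2 scale (adjusted p = 1.4e-21), and HT-29 stood -4.23 ± 0.07 from HCT-116 (adjusted p = 1.5e-22). FADS2, which acts before FADS1 in that route, had the same order of means and was nearly absent in HT-29 (0.128, 0.721 and 0.453 TPM). The 2 desaturase genes overlap on opposite strands of chromosome 11 (FADS1 61799627-61829318, FADS2 61792980-61867354, GRCh38), and whether strand was used in the pseudoalignment is not given in the sources used here. Elsewhere in the pathway the spread was smaller: over the 18 conditions the highest mean was 1.54 times the lowest for ACLY and 1.59 times for SREBF2, against 17.6 times for FADS1, 29.5 times for FADS2 and 235 times for SQLE.

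To see how 5-FU acted on these genes, treated cells were compared with uracil controls within each line. In sensitive DLD-1, 28 of the 30 genes were lower under 5-FU and none was higher (background 20.3% lower and 14.4% higher). The median change was -0.47 on the log2 scale, against 0.01 for all genes. ACAT2, which condenses acetyl-CoA, and FADS1 were the genes not called. INSIG1 was between 49.2 and 56.4 TPM under uracil and at 19.2, 19.1 and 21.1 TPM under 5-FU, a change of -1.51 ± 0.06 (adjusted p = 5.2e-14). SCD, the stearoyl-CoA desaturase, went from 169, 165 and 172 TPM to 76.6, 74.6 and 76.8 TPM, a change of -1.25 ± 0.04 (adjusted p = 3.1e-14). These were the only 2 of the 30 that fell by at least 2-fold, a limit passed by 1.37% of all genes in that direction and 2.66% in the other. For both genes the treated and control libraries were far apart relative to the spread within each group.

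In the mevalonate stage 6 of 7 genes fell in sensitive DLD-1. HMGCS1, which makes HMG-CoA, was at 164, 159 and 166 TPM under uracil and at 102, 101 and 94.2 TPM under 5-FU (-0.80 ± 0.06, adjusted p = 5.1e-10), and MVK, the mevalonate kinase, changed by -0.71 ± 0.05. IDI1, the isopentenyl diphosphate isomerase, moved least of those that fell (74.0, 72.7 and 74.7 to 66.8, 66.9 and 66.0 TPM, -0.26 ± 0.04). All 11 genes of the squalene and sterol stage fell, from SQLE (79.0, 74.0 and 75.6 to 43.6, 43.4 and 44.5 TPM, -0.98 ± 0.04, adjusted p = 5.7e-14) to SC5D, the sterol desaturase near the end of the route (-0.17 ± 0.05, adjusted p = 0.0069). MSMO1 and TM7SF2, a sterol reductase, changed by -0.82 ± 0.09 and -0.80 ± 0.08. SREBF1 and SREBF2 changed by -0.79 ± 0.04 and -0.32 ± 0.04. Among the fatty acid genes ELOVL6 and FASN changed by -0.39 ± 0.04 and -0.37 ± 0.05, and ACLY and ACACA by -0.23 each. The TPM of the treated libraries lay wholly below the controls for 25 of the 30 genes, which held for 19.3% of all genes.

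**Figure D2:**
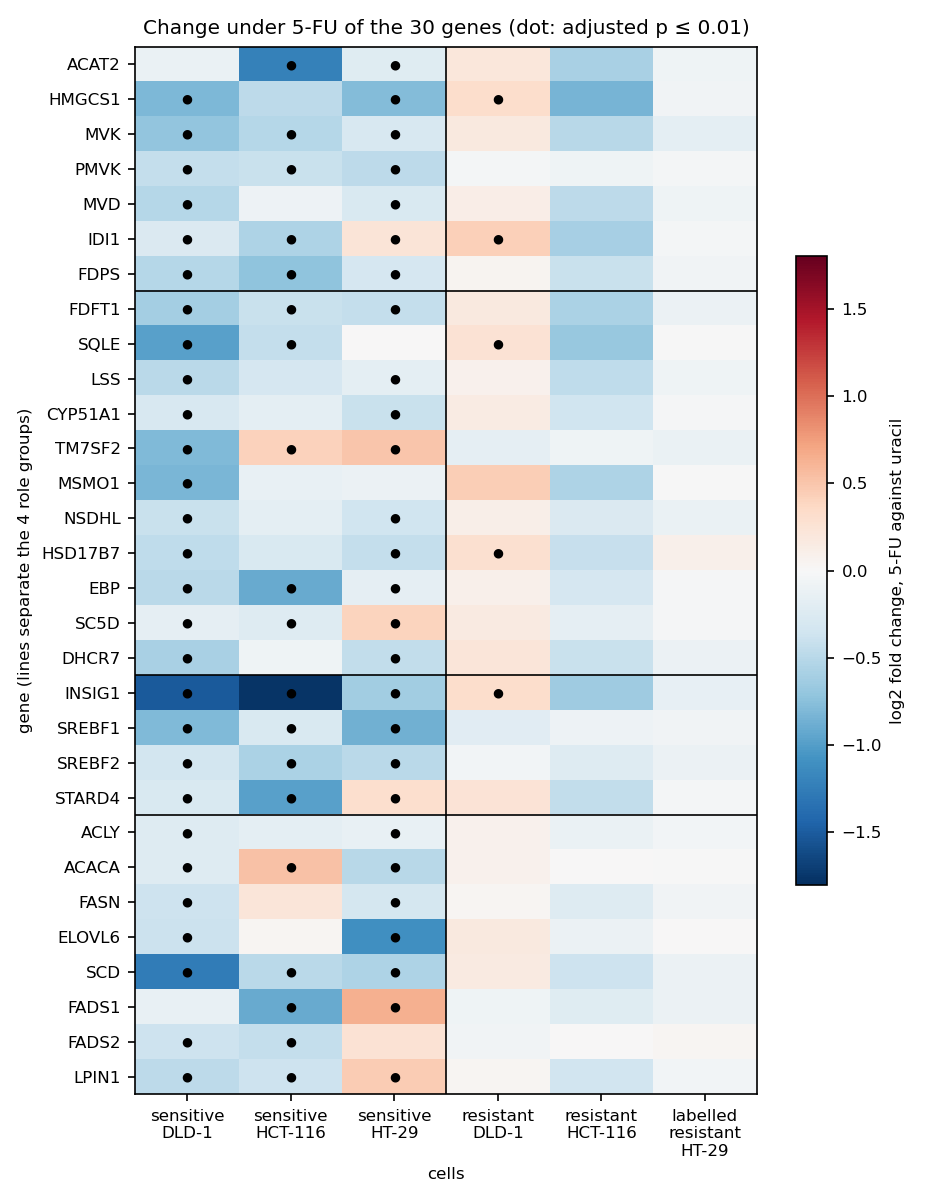
Log2 fold changes of the 30 genes, 5-FU against uracil, in the 6 kinds of cells (columns); blue is lower and red higher under 5-FU, and dots mark an adjusted p of at most 0.01. In sensitive DLD-1 28 genes have dots, all on blue, whereas in resistant DLD-1 the 5 dots are on red.

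In sensitive HCT-116, 17 genes were lower and 2 higher under 5-FU (background 24.4% and 17.6%), with a median of -0.39 against 0.02 for all genes. INSIG1 and ACAT2 fell by at least 2-fold (background 3.36% lower and 4.79% higher). INSIG1 changed most, from 26.9, 23.8 and 26.2 TPM to 7.07, 7.57 and 7.69 TPM (-1.76 ± 0.16, adjusted p = 5.7e-09). ACAT2, which was not called in DLD-1, was at 37.1, 39.3 and 38.9 TPM under uracil and at 16.9, 17.0 and 15.7 TPM under 5-FU (-1.22 ± 0.17, adjusted p = 2.5e-06). STARD4, a carrier that moves cholesterol between membranes, and EBP, the sterol isomerase, changed by -0.98 ± 0.10 and -0.90 ± 0.09. FADS1 fell from 30.9, 32.0 and 30.3 TPM to 16.8, 17.7 and 18.8 TPM (-0.91 ± 0.06, adjusted p = 4.4e-11), and FADS2 fell by 0.43 on the log2 scale. The genes that rose were TM7SF2 (18.7, 18.5 and 20.5 to 24.5, 25.6 and 26.9 TPM, 0.41 ± 0.05) and ACACA, the acetyl-CoA carboxylase (39.4, 40.6 and 38.7 to 48.1, 45.6 and 51.9 TPM, 0.53 ± 0.07). Of the 11 squalene and sterol genes 4 were called lower here (FDFT1, SQLE, EBP and SC5D), while 10 of the 11 had a log2 fold change below 0 and 9 had TPM ranges wholly below the controls (background 29.3%). For SREBF1 the call of -0.27 ± 0.05 stood beside overlapping TPM (108, 115 and 105 against 118, 102 and 113), and the means moved in the opposite direction on the TPM scale. With the 2 resistant libraries that stood apart left out of the common fit, 23 genes were lower and 3 higher (25.1% and 17.9% of all genes).

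In sensitive HT-29, 21 genes were lower and 6 higher under 5-FU (background 24.9% and 22.1%), with a median of -0.29. ELOVL6, the elongase that extends palmitate, changed most on the scaled counts (-1.10 ± 0.04, adjusted p = 5.7e-17), with 66.5, 66.5 and 62.4 TPM under uracil and 50.7, 53.7 and 50.9 TPM under 5-FU. Its fall in TPM, which is corrected for length, was smaller, and the part of transcript length in the difference was not tested. SREBF1 went from 42.8, 39.2 and 45.0 to 30.2, 28.2 and 30.8 TPM (-0.86 ± 0.04, adjusted p = 3.1e-16) and HMGCS1 from 103, 109 and 107 to 75.9, 71.6 and 71.0 TPM (-0.79 ± 0.04, adjusted p = 3.4e-14). The 6 genes that rose were FADS1, TM7SF2, LPIN1, SC5D, STARD4 and IDI1, with changes from 0.23 to 0.64. FADS1 rose from 2.82, 2.56 and 2.78 to 5.92, 4.72 and 5.06 TPM (0.64 ± 0.08, adjusted p = 1.2e-07), TM7SF2 from 33.5, 34.3 and 30.7 to 57.4, 58.3 and 55.5 TPM (0.49 ± 0.05, adjusted p = 1.5e-08), and SC5D from 70.6, 74.1 and 68.3 to 111, 120 and 117 TPM (0.40 ± 0.05, adjusted p = 2.2e-08). SQLE was at 272, 283 and 257 TPM under uracil and at 349, 327 and 319 TPM under 5-FU, while the change of its scaled counts was 0.00 ± 0.06 (adjusted p = 0.96). The median TPM of the 14134 genes at 1 TPM or more in both groups rose by 0.16 on the log2 scale. Of the 27 genes called, 6 had mean TPM moving the other way (ACAT2, MVK, LSS, EBP, ACLY and FASN). TPM ranges were wholly below the controls for 12 of the 30 genes (16.5% of all genes), all of them called lower. They were wholly above for 9, of which 6 were called higher. The share of all genes wholly above is not given here, so the 9 are not set apart from all genes. The median log2 ratio of mean TPM over the 30 genes was 0.01, so on that scale they had no net fall. With library size alone as the scale, 16 were lower and 7 higher (18.3% and 30.03% of all genes). In the same libraries the endothelial marker PECAM1 had means of 0.332 TPM under uracil and 3.84 TPM under 5-FU and the epithelial keratin KRT20 means of 161 and 557 TPM, and their part in the result was not tested.

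Under 5-FU, 9 genes were lower in all 3 sensitive lines: MVK, PMVK, FDPS, FDFT1, EBP, INSIG1, SREBF1, SREBF2 and SCD. By comparison, the same held for 7.98% of the 20024 genes tested in all 3 lines. For 5 of the 9, namely PMVK, FDFT1, INSIG1, SREBF2 and SCD, the TPM of the treated libraries were also wholly below the controls in every line. With library size alone as the scale, 6 genes were lower in all 3 lines (PMVK, FDPS, INSIG1, SREBF1, SREBF2 and SCD). No member was higher in all 3 lines (edgeR; 3.19% of all genes). SREBF2, the SREBP gene most tied to cholesterol synthesis, changed by -0.32 ± 0.04, -0.58 ± 0.06 and -0.48 ± 0.04 in the same order of lines (DLD-1 first, HT-29 last). PMVK, the phosphomevalonate kinase, changed by amounts within their errors of each other (-0.43 ± 0.06, -0.40 ± 0.06 and -0.47 ± 0.06). Other genes took different directions: TM7SF2 fell in DLD-1 and rose in HCT-116 and HT-29, ACACA fell in DLD-1 and HT-29 and rose in HCT-116, and FADS1 fell in HCT-116 and rose in HT-29. The differences between lines in the 5-FU response were not tested, since each line was fitted on its own.

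**Figure D3:**
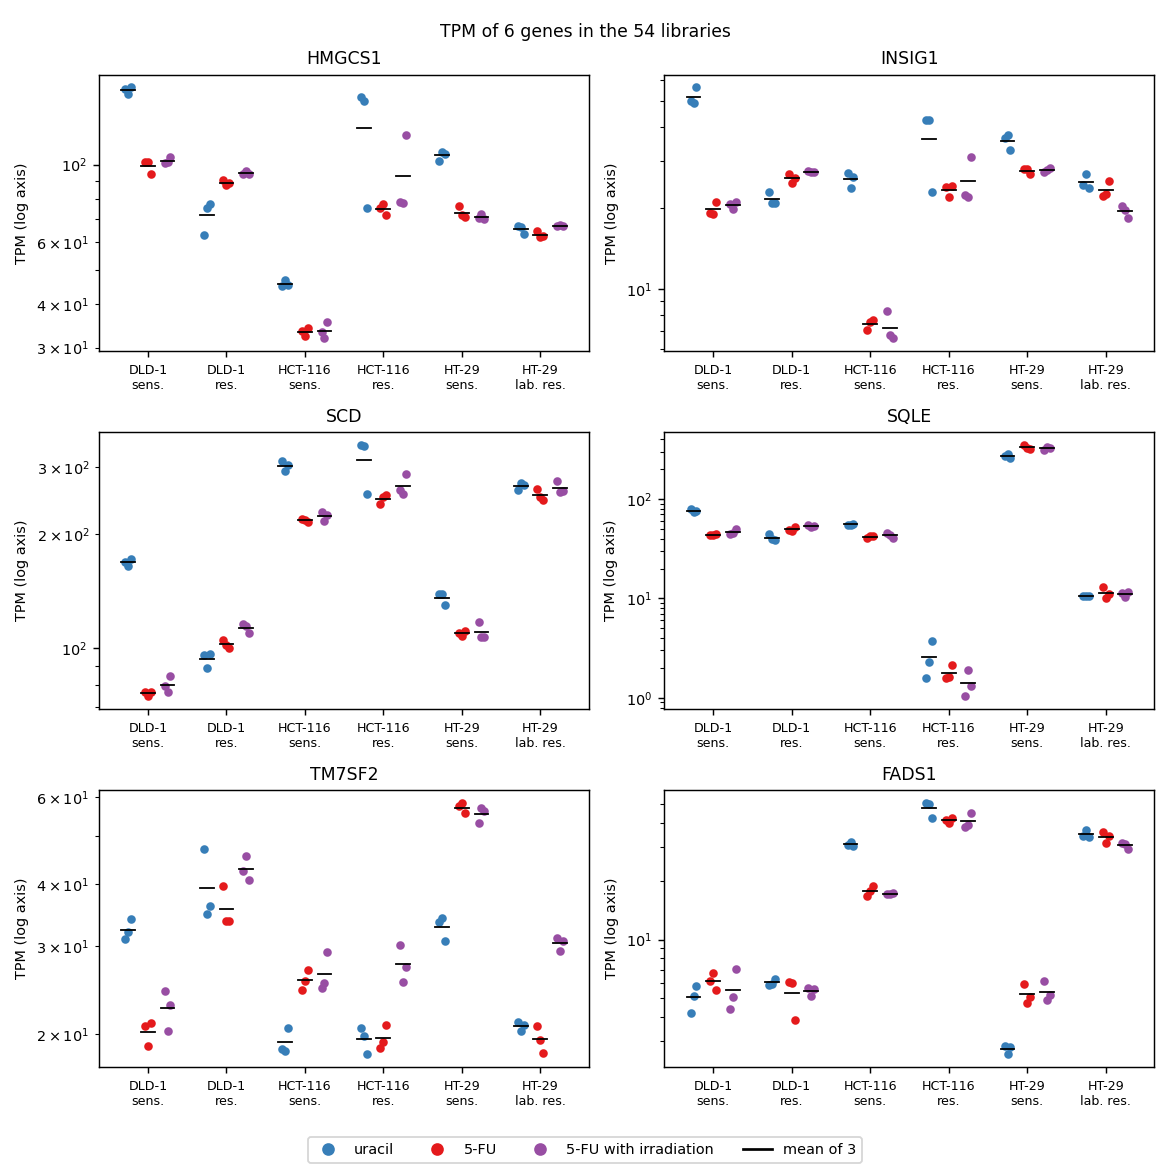
TPM on a log axis of HMGCS1, INSIG1, SCD, SQLE, TM7SF2 and FADS1 in each of the 54 libraries, coloured by treatment, with lines at the mean of 3. INSIG1 and SCD lie lower under 5-FU than under uracil in the 3 sensitive lines, and SQLE lies between 1 and 4 TPM in all resistant HCT-116 libraries.

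Irradiation was added to 5-FU to see whether it altered these levels further, and none of the 30 genes was called in a sensitive line. In DLD-1 edgeR called 0 genes, with 7 at an unadjusted p under 0.05 and 0 called by DESeq2 (background 0.0367% higher and 0.0275% lower). HCT-116 had 0 called, 1 under the unadjusted limit and 0 by DESeq2 (background 0.00871% and 0.918%), and HT-29 had 0 called, 0 under the unadjusted limit and 0 by DESeq2 (background 0% and 0.00842%). INSIG1 differed by 0.04 ± 0.06, -0.10 ± 0.18 and 0.00 ± 0.06 in the 3 lines. HMGCS1 differed by 0.01 ± 0.06, 0.05 ± 0.19 and -0.04 ± 0.04.

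In resistant cells the question is whether the response to 5-FU was kept. In resistant DLD-1 the genes that responded did so in the opposite direction to the sensitive cells: 5 rose (HMGCS1, IDI1, SQLE, HSD17B7 and INSIG1) and none fell (background 0.133% higher and 0.252% lower, or 0.00458% and 0.00917% at 2-fold, which no member reached), with a median of 0.14. IDI1 was at 46.5, 44.9 and 46.8 TPM under uracil and at 63.2, 59.8 and 61.6 TPM under 5-FU (0.43 ± 0.05, adjusted p = 9.1e-05). SQLE went from 44.6, 39.4 and 38.6 to 48.3, 47.2 and 52.6 TPM (0.26 ± 0.04, adjusted p = 0.002), and INSIG1 from 23.0, 20.9 and 20.9 to 26.9, 24.9 and 25.8 TPM (0.32 ± 0.06, adjusted p = 0.0093). HMGCS1 went from 62.8, 75.3 and 77.3 to 90.2, 87.3 and 88.6 TPM (0.32 ± 0.06, adjusted p = 0.0089). The treated libraries were above the controls in each of the 5 genes, which had been called higher from these same libraries. This number of calls was not stable, since leaving out 1 library gave from 1 to 8 calls: 1 without any of the 3 5-FU libraries, 3 without uracil replicate 2 or 3, and 8 without uracil replicate 1, the library that stood apart (7 higher and 1 lower, against 0.691% and 0.917% of all genes). DESeq2 called 9, and a fit of the compared groups alone called 0, with the shares of all genes in these fits not given here.

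The difference between the responses of resistant and sensitive DLD-1 cells, tested as an interaction, was larger than 0 for 28 of the 30 genes and smaller for none (background 13.7% and 9.12%), with a median of 0.57. A 2-fold difference was reached by 5 of them (background 0.912% above and 2.21% below 0). INSIG1 had the largest difference, 1.83 ± 0.08 (adjusted p = 5e-12), followed by SCD with 1.42 ± 0.06, MSMO1 with 1.27 ± 0.12, SQLE with 1.24 ± 0.05 and HMGCS1 with 1.12 ± 0.08. All 7 mevalonate genes, all 11 squalene and sterol genes and all 4 regulators and carriers were among the 28. FADS1 (0.05 ± 0.12) and FADS2 (0.31 ± 0.10) were not called. Without uracil replicate 1 of the resistant cells the counts were again 28 above and 0 below 0 (16.6% and 10.2% of all genes). Irradiation added to 5-FU in resistant DLD-1 raised IDI1, FDFT1, SQLE and ACACA by 0.17 to 0.28 and lowered PMVK and FADS2 by 0.32 and 0.34 on the log2 scale (background 2.42% higher and 1.43% lower), and the count was 1 to 3, instead of 6, whichever of the 6 libraries compared was left out.

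The starting level of the resistant DLD-1 cells also differed. Under uracil, 23 of the 30 genes were lower in resistant than in sensitive DLD-1 and 2 were higher (background 11.5% and 13.1%), with a median of -0.47. INSIG1 was at 23.0, 20.9 and 20.9 TPM in resistant and between 49.2 and 56.4 TPM in sensitive cells (-1.28 ± 0.06, adjusted p = 3.3e-13), and HMGCS1 at 62.8, 75.3 and 77.3 against 164, 159 and 166 TPM (-1.20 ± 0.06, adjusted p = 1.2e-12). MSMO1, SQLE and SCD differed by -1.08 ± 0.09, -0.94 ± 0.04 and -0.87 ± 0.04. TPM ranges were wholly below those of the sensitive cells for 24 of the 30 genes (17.6% of all genes), and 22 of these 24 were among the 23 called lower. Without uracil replicate 1 of the resistant cells 24 genes were lower and 2 higher (12.8% and 13.2% of all genes). FADS2 was the 1 gene that was 2-fold higher (background 3.69%), at 9.89, 10.1 and 10.6 TPM in resistant and 4.77, 4.96 and 5.47 TPM in sensitive cells (1.08 ± 0.07, adjusted p = 9.5e-11), and FADS1 was 0.30 ± 0.08 higher. This comparison, the response of the sensitive cells and the interaction share the sensitive uracil libraries, so their values are not independent of each other.

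**Figure D4:**
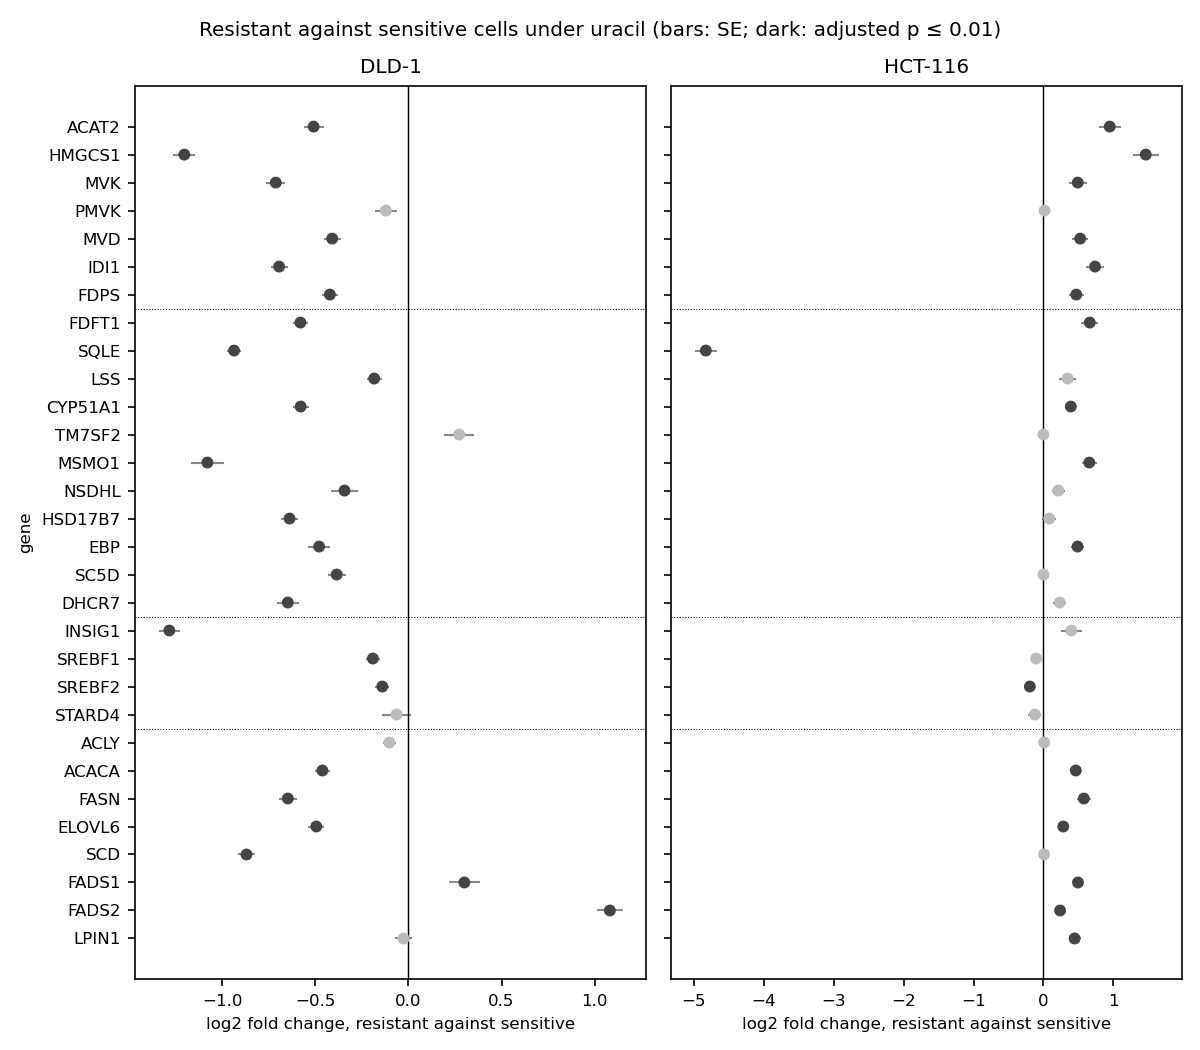
Log2 fold changes under uracil of resistant against sensitive cells for the 30 genes in DLD-1 (left) and HCT-116 (right), with SE bars; dark points have an adjusted p of at most 0.01, and the panels have different axes. Most points lie left of 0 in DLD-1 and right of 0 in HCT-116, where SQLE lies at -4.83.

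In HCT-116 the resistant cells differed from the sensitive ones in the opposite direction: under uracil 16 genes were higher and 2 lower (background 16.4% and 24.7%), with a median of 0.37. HMGCS1 was at 156, 152 and 75.0 TPM in resistant and at 45.0, 46.7 and 45.4 TPM in sensitive cells (1.46 ± 0.19, adjusted p = 8e-07). ACAT2 was at 90.2, 85.9 and 52.5 against 37.1, 39.3 and 38.9 TPM (0.95 ± 0.16). IDI1, FDFT1, MSMO1 and FASN were higher by 0.58 to 0.74. HMGCS1 was the 1 gene that was at least 2-fold higher (background 4.17%). In HMGCS1 and ACAT2 1 resistant library, uracil replicate 3, was nearest to the sensitive cells. Without that library 20 genes were higher and 1 lower (background 16.1% and 22.8%), and with the irradiated library that stood apart left out too, 21 were higher and 1 lower (16.6% and 24.0% of all genes). Without uracil replicate 3 HMGCS1 differed by 1.75 ± 0.13 and ACAT2 by 1.16 ± 0.13, and these 2 genes were at least 2-fold higher (4.35% of all genes).

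SQLE went the other way, with the largest change of the 30 genes in this comparison. It was at 1.57, 2.32 and 3.76 TPM in resistant HCT-116 and at 55.0, 55.3 and 56.5 TPM in sensitive HCT-116, a change of -4.83 ± 0.16 (adjusted p = 3.7e-16), and only 0.431% of the 22975 genes tested had a lower log2 fold change. Without uracil replicate 3, the highest of the resistant libraries, the change was -5.36 ± 0.09. Levels in the resistant cells stayed low under 5-FU (1.59, 1.63 and 2.13 TPM) and under 5-FU with irradiation (1.04, 1.90 and 1.31 TPM). The main protein-coding transcript, SQLE-201, had a mean of 1.21 TPM in resistant and 41.8 TPM in sensitive cells under uracil. FDFT1 and LSS, the enzymes directly before and after SQLE in the route, were at 183, 174 and 109 TPM and at 28.5, 29.9 and 18.5 TPM in the resistant cells, against 95.9, 91.5 and 97.5 TPM and 19.4, 19.6 and 18.7 TPM in the sensitive cells. Of 11 tested genes within 1 Mb of SQLE, chosen after its values were seen, 10 were also lower in resistant HCT-116 (background 24.7%), from -0.26 for TATDN1 to -2.05 for MTSS1, compared with -4.83 for SQLE.

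**Figure D5:**
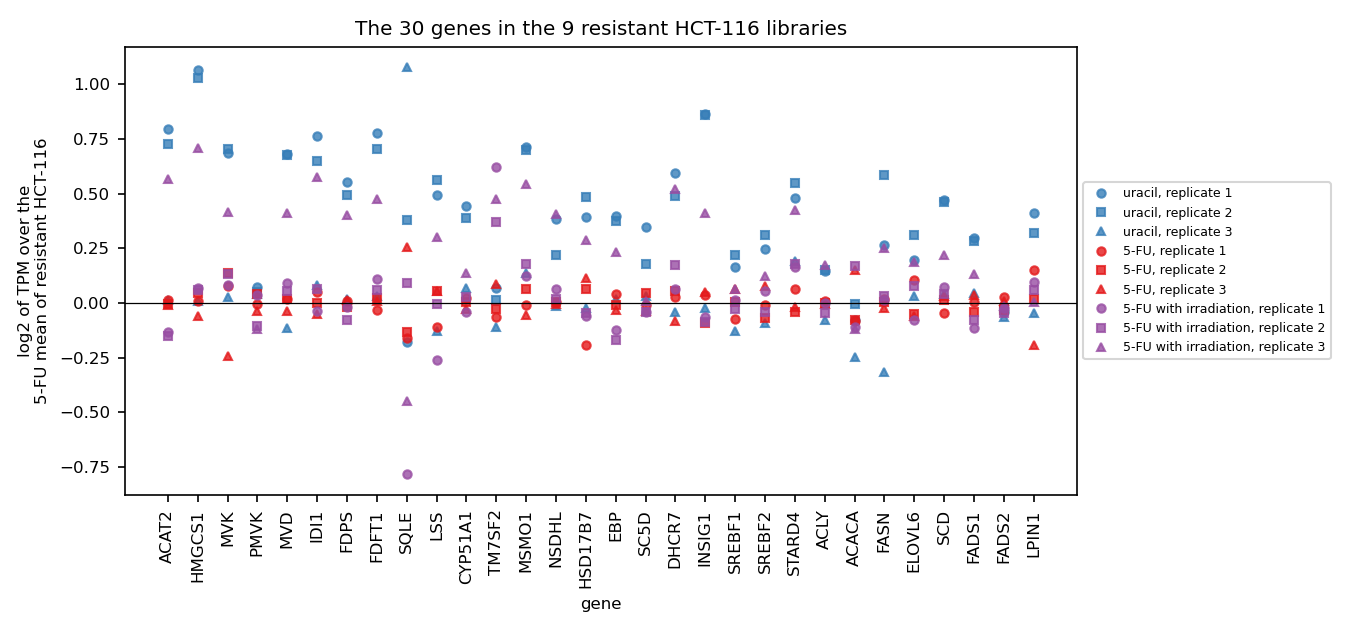
Log2 of TPM over the mean of the 5-FU libraries for the 30 genes in the 9 resistant HCT-116 libraries; colour gives the treatment and shape the replicate. Uracil replicates 1 and 2 lie above 0 for most genes, uracil replicate 3 lies among the 5-FU libraries, and replicate 3 of 5-FU with irradiation lies above the other irradiated libraries.

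Whether the response of resistant HCT-116 cells to 5-FU was called depended on 1 library and on the filter on low counts, while its size changed less. With all libraries edgeR called 0 of the 30 genes (DESeq2 called 1, background 0% in either direction). An unadjusted p under 0.05 was found for 25 of the 30 and for 8.17% of all genes, 28 of the 30 were below 0 with a median of -0.36, and HMGCS1 changed by -0.83 ± 0.18 (adjusted p = 0.23). HMGCS1 was at 156, 152 and 75.0 TPM under uracil, 75.1, 77.0 and 71.6 TPM under 5-FU and 78.1, 77.7 and 122 TPM under 5-FU with irradiation. INSIG1 had the same layout, at 42.6, 42.5 and 23.0 TPM under uracil, at most 24.3 TPM under 5-FU, and 22.4, 22 and 31.1 TPM with irradiation. Without uracil replicate 3, 17 genes were lower and 0 higher, with a median of -0.48 (background 0.11% lower and 0.156% higher), and with both libraries that stood apart left out 21 were lower and 0 higher (background 0.517% and 0.843%). Without the filter on low counts, and with all libraries, 22 were lower and 0 higher (background 0.216% and 0.257%), with a median of -0.36. Genes called higher by at least 0.5 on the log2 scale under irradiation in both resistant DLD-1 and labelled resistant HT-29 (22 genes, chosen after their values were seen) were above the 5-FU mean by a median of 0.25, 0.24 and 0.31 on the log2 scale in the 3 irradiated resistant HCT-116 libraries, and by -0.07, -0.09 and 0.09 in the 3 uracil libraries.

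The interaction in HCT-116 was called for 9 genes, 7 above 0 and 2 below (background 18.3% and 11.4%). INSIG1 had the largest, 1.13 ± 0.22 (adjusted p = 0.00027), with a change of -1.76 ± 0.16 in sensitive and -0.63 ± 0.15 in resistant cells. FADS1, EBP, STARD4, FADS2, SREBF2 and PMVK were the others above 0, and ACACA (-0.53 ± 0.10) and TM7SF2 (-0.48 ± 0.08) were below. INSIG1 was the only 1 at 2-fold (background 3.05% above and 3.06% below 0). Without uracil replicate 3 of the resistant cells the count was 15, with 7 above 0 and 8 below (background 18.7% and 10.6%), INSIG1 was at 0.92 ± 0.16, and no gene reached 2-fold. Irradiation added to 5-FU in resistant HCT-116 was called for 1 gene, TM7SF2 (18.8, 19.3 and 20.9 to 30.2, 25.4 and 27.3 TPM, 0.48 ± 0.05, adjusted p = 2.4e-05), at a background of 1.7% higher and 0.884% lower, and 0.0261% higher at 2-fold. Without irradiated replicate 3 TM7SF2 was again the 1 gene called (0.46 ± 0.06, adjusted p = 0.00018, 0.796% of all genes higher and 0.825% lower).

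The labelled resistant HT-29 cells carried the markers of HCT-116 and are compared with both lines. Against sensitive HT-29 under uracil, 19 of the 30 genes were lower and 8 higher, at a background of 34.3% and 34.1%. SQLE was at 10.7, 10.7 and 10.6 TPM against 272, 283 and 257 TPM (-5.07 ± 0.07, adjusted p = 3.7e-27), FADS1 at 34.2, 36.8 and 33.7 against 2.82, 2.56 and 2.78 TPM (4.11 ± 0.07), and FADS2 at 8.48, 7.87 and 7.87 against 0.128, 0.721 and 0.453 TPM (5.30 ± 0.16). Against sensitive HCT-116 only 1 gene was higher, FASN, and 9 were lower (background 8.86% and 18.7%), and the median was -0.10. SQLE was again the gene that differed most (-2.55 ± 0.15, adjusted p = 5.7e-12), with 2.01% of all tested genes at a lower log2 fold change, and HSD17B7 and FADS2 followed with -0.55 each. Leaving out any 1 of the 6 libraries compared gave 4 to 7 calls instead of 10: 4 without labelled resistant replicate 1 or 3, 5 without its replicate 2 or HCT-116 replicate 1 or 3, and 7 without HCT-116 replicate 2. No gene was called higher in 4 of these 6 fits. With library size alone as the scale, 4 were higher and 4 lower (17.3% and 13.4% of all genes). In a fit of these groups alone, 6 were higher and 10 lower (17.7% and 21.7% of all genes). Of the 11 genes near SQLE, 8 were lower than in sensitive HCT-116.

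The labelled resistant HT-29 cells showed no called response to 5-FU. By edgeR 0 of the 30 genes were called, 6 had an unadjusted p under 0.05 and DESeq2 called 0 (background 0% higher and 0.0421% lower). HMGCS1 was at 66.8, 66.2 and 63.4 TPM under uracil and 64.7, 62.1 and 62.4 TPM under 5-FU (-0.07 ± 0.05), and SCD changed by -0.11 ± 0.05. The interaction with sensitive HT-29 was called for 15 genes above 0 and 5 below (background 19.3% and 16.1%), with ELOVL6 at 1.11 ± 0.06 the largest, but it compares cells whose markers are those of different lines. The ELOVL6 value also rests on counts not corrected for transcript length, and in sensitive HT-29 its TPM fell less than its counts. Irradiation on top of 5-FU was called for 5 genes that rose, TM7SF2, ACACA, LPIN1, LSS and FASN, and for 4 that fell, ACAT2, EBP, FDPS and SREBF1 (background 7.48% and 6.94%), and the count fell to 5 without irradiated replicate 2. TM7SF2 rose from 20.7, 19.5 and 18.3 to 31.2, 29.3 and 30.7 TPM (0.60 ± 0.06, adjusted p = 5.7e-08).

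Neighbouring lipid pathways were counted in lists of fixed membership. Among 12 other genes linked to SREBPs, 11 were tested in DLD-1, and under 5-FU in the sensitive cells 9 were lower and 1 higher (20.3% and 14.4% of all genes). ACSS2, which makes acetyl-CoA from acetate, was at 38.9, 41.5 and 42.1 TPM under uracil and 27.1, 27.1 and 23.6 TPM under 5-FU in DLD-1 (-0.89 ± 0.08), and MID1IP1, an activator of acetyl-CoA carboxylase, changed by -0.82 ± 0.04. In HCT-116 7 of 12 were lower and 2 higher (24.4% and 17.6% of all genes), led by ACSL3, an acyl-CoA synthetase (98.1, 92.4 and 108 to 37.1, 41.3 and 38.8 TPM, -1.31 ± 0.06), and FADS3 (1.09 ± 0.04). In HT-29 6 of 12 were lower and 2 higher (24.9% and 22.1% of all genes), and ACSS2 took the opposite direction from DLD-1 (8.33, 6.80 and 7.55 to 17.3, 18.1 and 19.4 TPM, 1.00 ± 0.06). ELOVL5, the elongase that works between FADS2 and FADS1, was at 69.2, 75.5 and 69.8 TPM in sensitive HCT-116 and at 62.6, 60.2 and 61.4 TPM in labelled resistant HT-29 under uracil, and at most 0.0634 TPM in uracil libraries of sensitive DLD-1 and HT-29.

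Of the 4 genes that process SREBPs (SCAP, MBTPS1, MBTPS2 and INSIG2), 2 were lower in sensitive DLD-1 under 5-FU, 3 in HCT-116 and 3 in HT-29, where INSIG2 was higher, against 20.3%, 24.4% and 24.9% of all genes lower and 22.1% higher in HT-29. INSIG2, a paralog of INSIG1, was at 37.7, 31.3 and 33.4 TPM under uracil and 66.4, 62.0 and 67.7 TPM under 5-FU in HT-29 (0.74 ± 0.06). In HCT-116 it was at 38.2, 33.7 and 40.6 TPM under uracil and 23.1, 22.8 and 23.6 TPM under 5-FU (-0.73 ± 0.11), and resistant HCT-116 under uracil had 14.8, 12.6 and 15.0 TPM (-1.44 ± 0.11 against sensitive cells).

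Genes that use or export sterols moved in both directions. Of 6 genes of sterol esterification and lysosomal use, sensitive DLD-1 had 1 lower and 3 higher, HCT-116 had 2 lower and 1 higher, and HT-29 had 1 lower and 4 higher. Of all genes 20.3%, 24.4% and 24.9% were lower and 14.4%, 17.6% and 22.1% higher in these lines, so that several of these counts lie near those shares. SOAT1, which esterifies cholesterol, was at 0.994, 1.45 and 1.59 TPM under uracil and 6.21, 6.46 and 6.0 TPM under 5-FU in HT-29 (2.10 ± 0.08). NPC2, which hands cholesterol out of the lysosome, was at 155, 153 and 166 TPM and then 95.4, 91.6 and 90.4 TPM in HCT-116 (-0.81 ± 0.05). Of 7 sterol efflux genes and targets of the liver X receptors, sensitive HT-29 had 3 lower and 1 higher, and the other sensitive lines had 2 lower each, against the share of all genes lower (24.9% in HT-29, 20.3% in DLD-1 and 24.4% in HCT-116). NR1H3, a liver X receptor, went from 55.4, 54.5 and 52.5 to 37.5, 36.9 and 38.4 TPM in HT-29 (-0.88 ± 0.05).

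Among 9 genes of the isoprenoid branch, which draws on mevalonate products, sensitive HT-29 had 6 lower, DLD-1 had 5 and HCT-116 had 3, and none was higher in any of them (24.9%, 20.3% and 24.4% of all genes lower). COQ2, of ubiquinone synthesis, was at 23.3, 22.1 and 22.1 TPM under uracil and 11.6, 10.1 and 10.0 TPM under 5-FU in HCT-116 (-1.11 ± 0.07), and PDSS2, of the same route, changed by -1.27 ± 0.07 in HT-29. Of 14 genes of fatty acid oxidation, sensitive DLD-1 had 6 lower and 1 higher, HCT-116 had 7 and 3, and HT-29 had 7 and 4. The shares of all genes were 20.3% lower and 14.4% higher, 24.4% and 17.6%, and 24.9% and 22.1%. ACAA2, a mitochondrial thiolase, was at 37.7, 32.7 and 38.9 TPM and then 13, 13.4 and 11.4 TPM in HCT-116 (-1.46 ± 0.10), and ETFDH, which passes electrons from oxidation to ubiquinone, changed by -1.02 ± 0.07 in DLD-1. In resistant against sensitive DLD-1 under uracil, 4 oxidation genes were higher and 1 lower (13.1% and 11.5% of all genes), and CPT1A, which admits fatty acids to mitochondria, was at 45.9, 39.9 and 40.8 against 29.6, 27.9 and 28.4 TPM (0.59 ± 0.04). In HCT-116 the same comparison had 1 higher and 7 lower (16.4% and 24.7% of all genes).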

How the data were processed

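Poly(A) RNA of 54 libraries was sequenced by the authors with a directional kit. Reads were recovered from BAM files with Picard, per the study's methods. They were trimmed with Trimmomatic 0.36, checked with FastQC 0.11.8 and pseudoaligned to GRCh38.p13 transcripts with kallisto 0.44.0, per the submitters' notes. The authors deposited estimated counts and TPM, both summed from transcripts to 59368 genes, and 60.7% of the gene-level estimated counts were whole numbers. TPM is normalized for transcript length and to a fixed total, so it shows levels, whereas tests used the deposited estimated counts rounded to whole numbers.

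Genes with low counts were removed (filterByExpr) and composition was scaled by TMM in edgeR 4.0.16 under R 4.3.3. Each line was fitted over its 18 libraries (6 groups, 12 residual degrees of freedom), and the 18 uracil libraries were fitted together for comparisons of lines. The quasi-likelihood test gave 22 comparisons, adjusted by Benjamini-Hochberg over all genes tested, with a call at 0.01. SE is the size of the log2 fold change divided by the square root of F. In data simulated with 200 changed genes, the fit recovered 163 for 5-FU in sensitive DLD-1, 137 in HCT-116, 156 in HT-29 and 146 for HCT-116 against DLD-1 under uracil, with 2, 0, 1 and 2 false calls. DESeq2 1.42.0 was an alternative. Tables were joined with pandas 2.3.3 and plotted with matplotlib 3.10.9.

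All 30 genes enter the counts, and values are given for some of them. Other genes come from 6 pathway lists and are named only where they were among the 3 called genes with the largest change of their list, apart from cell type markers and genes said to be chosen after their values were seen. The 30 genes and the lists were chosen with earlier results of these data known. The samples are described as biological triplicates, and replicate pairs differed by more than sampling noise (chi-square per degree of freedom from 2.24 to 24.5 over 54 pairs). Same-numbered replicates did not deviate together (r from -0.08 to 0.10). Only the lowest, median and highest total counts per library, which bear on the precision of low genes, are given above.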

Additional observations from a re-analysis of the deposited data

Results flagged for a closer look

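Responses to 5-FU that differed between resistant and sensitive cells, by the interaction term of the edgeR quasi-likelihood test, are collected here. In DLD-1 the term was called for 28 of the 30 genes, all of them above 0 (13.7% of all genes above and 9.12% below). HMGCS1 was at 1.12, SQLE at 1.24, MSMO1 at 1.27, SCD at 1.42 and INSIG1 at 1.83 on the log2 scale. In HCT-116 the term was called for 9 genes, with INSIG1 at 1.13. Of the 9, 7 were above 0 and 2 below, near the shares of all genes (18.3% and 11.4%). In the labelled resistant and sensitive HT-29 cells, whose markers are those of different lines, the term was called for 20 genes, with ELOVL6 at 1.11. That value rests on counts not corrected for transcript length, and in sensitive HT-29 the TPM of ELOVL6 fell less than its counts. Of the 20, 15 were above 0 and 5 below, and the shares of all genes are given with this result above.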

How the results depend on the processing

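Of 3824 values for the 301 fold changes called, other than under the 2-fold limit, 3572 kept their direction and call, 250 kept the direction without the call and 2 reversed. Both reversals came with library size alone as the scale: ACLY under 5-FU in sensitive HT-29 changed by 0.029 and MSMO1 in labelled resistant against sensitive HT-29 by 0.018.

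With a 2-fold limit added, the counts were 2 in sensitive and 0 in resistant DLD-1 under 5-FU, 0 for irradiation in resistant DLD-1, 4 for resistant against sensitive DLD-1 and 5 for the interaction. Of all genes 2.66% were higher and 1.37% lower in sensitive DLD-1 under 5-FU. The shares were 3.69% and 2.01% for resistant against sensitive DLD-1, and 0.912% and 2.21% for the interaction. In HCT-116 the counts were 2 in sensitive cells under 5-FU, 0 for irradiation in resistant cells, 2 for resistant against sensitive and 1 for the interaction. In HT-29 they were 1, 0, 12 and 1 for the same 4 comparisons. ELOVL6 is the gene in the first and the last of these, by counts not corrected for transcript length. The 12, for labelled resistant against sensitive HT-29, were 2 higher and 10 lower, in cells whose markers are those of different lines. The shares of all genes at 2-fold are not given here for that comparison or for the HT-29 interaction. These counts therefore do not set the 30 genes apart from all genes. Of all genes 4.79% were higher and 3.36% lower in sensitive HCT-116 under 5-FU, and 8.86% and 3.3% in sensitive HT-29. In HCT-116 the shares were 4.17% and 6.8% for resistant against sensitive cells, and 3.05% and 3.06% for the interaction. Between lines the counts were 10 for HCT-116 against DLD-1, 5 for HT-29 against DLD-1, 12 for HT-29 against HCT-116 and 1 for labelled resistant HT-29 against sensitive HCT-116, where 31.2%, 31.8%, 38.6% and 6.86% of all genes passed.

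Resistant DLD-1 under 5-FU gave 12 calls with no filter on low counts, 2 with the replicate block, 0 with only the compared groups and 9 with DESeq2. With no filter, HCT-116 gave 1 for irradiation in sensitive cells, 22 for 5-FU and 6 for irradiation in resistant cells, and 16 for the interaction. DESeq2 called 1 in resistant HCT-116 under 5-FU. With both libraries that stood apart left out, an alternative chosen after seeing the data, the resistant HCT-116 response had 21 calls and the interaction 18. For the response all 21 were lower (0.517% of all genes lower and 0.843% higher). For the interaction 8 were above 0 and 10 below (19.5% and 11.9% of all genes). Labelled resistant HT-29 against sensitive HCT-116 had 16 with only the compared groups. The cause of these shifts was not tested.

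Leaving out 1 library gave 1 to 8 calls for resistant DLD-1 under 5-FU, 1 to 3 for its irradiation, 0 to 17 for resistant HCT-116 under 5-FU (17 without uracil replicate 3), 7 to 15 for the HCT-116 interaction (15 without uracil replicate 3), 5 to 11 for irradiation in labelled resistant HT-29 (5 without irradiated replicate 2) and 4 to 7 for labelled resistant HT-29 against sensitive HCT-116. The labels do not say whether same-numbered replicates were paired samples, and the replicate block left 293 of the 301 calls. Thinning the deepest library left all 124 calls it touches.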
